A study of Homo sapiens with 10 samples.

Results

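The 9 genes described here encode the plasminogen activators, their receptor and inhibitors, and tissue factor with the proteins that restrain it. They are PLAU, PLAT, PLAUR, SERPINE2, SERPINB2, F3, THBD, TFPI and TFPI2, picked out by gene symbol from 57955 Ensembl genes in the files, and each symbol matched 1 gene. The set was put together for what the products do, but with earlier results of these data known. Messenger RNA was sequenced in 5 melanoma lines with mutant BRAF, named WM983A, WM983B, WM278, WM1617 and WM902B and sensitive to the BRAF inhibitor encorafenib and the MEK inhibitor binimetinib, and in a resistant derivative (E+BRes) of every line, which gives 10 libraries with no repeat of a line in a state. The derivatives were grown under both drugs for 3 to 5 months while the dose went from 1 nM to 200 nM, the dose they were then maintained in, whereas the sensitive lines were the original lines grown without this treatment. WM983A, WM278 and WM902B come from primary tumours and WM983B and WM1617 from metastases. WM983A and WM983B come from the same patient, as do WM278 and WM1617, so the 5 lines are not 5 independent tumours. Resistance and the presence of the drugs cannot be told apart in these libraries.

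Plasminogen is a circulating zymogen that is cut to the protease plasmin by urokinase, the product of PLAU, or by tissue plasminogen activator, the product of PLAT. Urokinase acts on the cell surface bound to its receptor, PLAUR, and both activators are inhibited by serpins, a family of suicide-substrate protease inhibitors. Tissue factor, F3, starts coagulation on cell membranes as the cofactor of factor VII, and in melanoma and other tumours it is often made by the tumour cells themselves.

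Libraries held 13970608 to 16966008 counts in the sensitive and 13693922 to 18033247 in the resistant group. Levels are given as CPM, counts set to the same library total after TMM scaling. The detection limit was put at 3 counts, which is 0.166 to 0.219 CPM before that scaling. Since no line was sequenced more than once in a state, the lines served as the replicates, and intervals for a single line cover counting error only. The melanocyte factor SOX10 was at 307 to 344 CPM in every sensitive library. The resistant WM983A library correlated most with the sensitive WM902B library (r = 0.813 over log2 levels of the tested genes) and less with its own sensitive line (r = 0.787). The edgeR fits of resistant against sensitive were repeated without that line, and the calls lost or gained without it are given beside the result.

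PLAU and PLAT, the activators themselves, changed in opposite directions in WM983A, WM983B and WM902B. PLAU (ENSG00000122861, GRCh38, chromosome 10, 73909177 to 73917496, plus strand) had only 2, 3, 0, 0 and 8 counts in sensitive WM983A, WM983B, WM278, WM1617 and WM902B. In the resistant libraries of the same lines it had 1539, 46, 0, 1 and 3330 counts, or 118, 2.89, 0, 0.0573 and 226 CPM. PLAU was therefore close to or under the detection limit in all 5 sensitive libraries, was abundant in resistant WM983A and WM902B, and stayed at or under 1 count in both states of WM278 and WM1617. Resistant WM983A had 899 times the sensitive level (95% counting interval 248 to 7426) and resistant WM902B 422 times (214 to 978). In WM983B the ratio was 14.5 (4.67 to 73.0). Of the genes tested, 0.0983% had as large a log2 ratio, in either direction, in WM983A and 0.110% in WM902B. An antisense gene, C10orf55, shares 31.0% of the PLAU exon bases. It had 0 to 10.1 CPM in the resistant libraries, so the reads of the pair cannot be told apart if the counting ignored strand. PLAU alone among the 9 failed the low-count filter, and its log2 level did not separate the groups by exact permutation (two-sided p = 0.151).

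PLAT (ENSG00000104368, chromosome 8, minus strand) went the other way. Its levels were 296, 244, 549, 174 and 201 CPM in sensitive WM983A, WM983B, WM278, WM1617 and WM902B, and 4.07, 74.5, 258, 149 and 27.2 CPM in the resistant libraries in the same order. It was lower in the resistant library of all 5 lines, from 72.6-fold (55.4 to 97.1) in WM983A to 1.17-fold (1.10 to 1.23) in WM1617, although the groups overlapped because resistant WM278 lay above 3 of the sensitive libraries. The decrease was 7.42-fold in WM902B, 3.27-fold in WM983B and 2.13-fold in WM278. PLAT was the only member at least 2-fold changed in the same direction in 4 or more lines, which 2.76% of all tested genes were. The exact permutation test of its log2 level gave p = 0.0397, two-sided, a value of at most 0.05 being reached by 6.17% of all tested genes and by 1 of the 9. This exact permutation p was 0.0857 to 0.143 when WM983A, WM983B, WM1617 or WM902B was left out. With the cell line as a block, edgeR's quasi-likelihood test gave a log2 change of -2.18 (SE 0.86, unadjusted p = 0.0393, adjusted p = 0.466), whereas without the block it was -1.51 (unadjusted p = 0.0944, adjusted p = 0.741). The blocked edgeR change was -1.47 without the WM983A line (unadjusted p = 0.0171), and its unadjusted p was 0.0803 without WM983B and 0.111 without WM902B.

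Compared per kilobase of merged exons, so that the genes can be set beside each other, PLAT exceeded PLAU in every sensitive library. Where PLAU had counts, PLAT was 853, 466 and 143 times the PLAU level in sensitive WM983A, WM983B and WM902B. In the resistant libraries the order was turned in WM983A, with 40.1 CPM per kilobase of PLAU against 0.524 of PLAT, and in WM902B, with 76.5 against 3.5. PLAU was thus 76.5 times PLAT in resistant WM983A and 21.9 times PLAT in resistant WM902B. In resistant WM983B PLAT still stood 9.79 times above PLAU, with 9.59 against 0.979 CPM per kilobase. Resistant WM278 and WM1617 kept PLAT at 33.2 and 19.2 CPM per kilobase with PLAU at 0 and 0.0194. The plot of per-kilobase levels shows this exchange in its left panel.

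**Figure D1:**
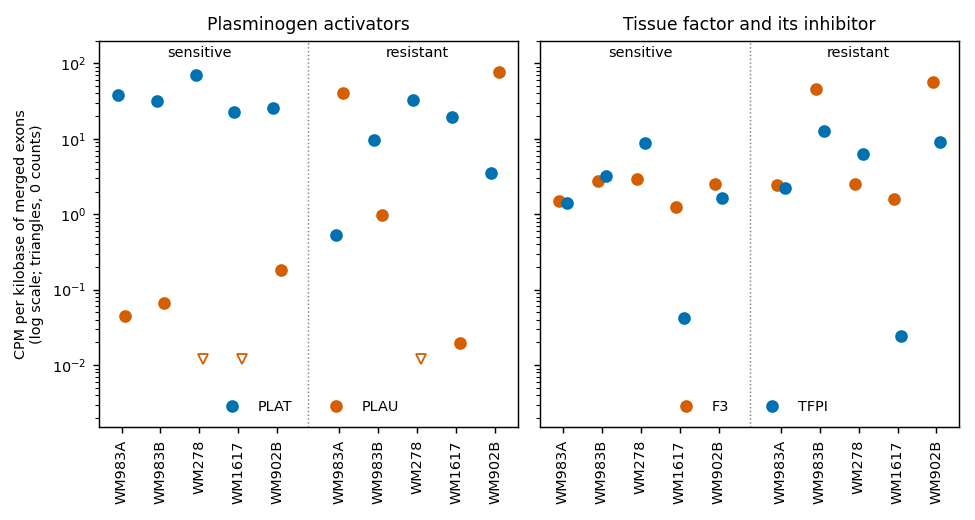
Levels of PLAT and PLAU (left) and of F3 and TFPI (right) in each library, in CPM per kilobase of merged exons on a log axis, with libraries on the x axis, sensitive left of the dotted line and resistant right of it; open triangles at the bottom mark 0 counts, and there is 1 library per point and no error bar. PLAU lies above PLAT only in resistant WM983A (76.5 times) and resistant WM902B (21.9 times), and F3 is at 46.4 and 57.2 CPM per kilobase in resistant WM983B and WM902B.

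PLAUR (ENSG00000011422, chromosome 19, 43646095 to 43670547, minus strand), the receptor that holds urokinase at the cell surface, was not raised together with its ligand. It stood at 103, 89.1, 171, 14.6 and 89.8 CPM in sensitive WM983A, WM983B, WM278, WM1617 and WM902B and at 21.8, 46.5, 14.2, 32.4 and 17.3 CPM in the resistant libraries. The receptor was lower in 4 resistant lines and higher in WM1617, the line with the lowest sensitive level, and the groups overlapped. The fold decreases were 12 in WM278 (10.5 to 13.9), 5.20 in WM902B, 4.74 in WM983A and 1.91 in WM983B, and the increase in WM1617 was 2.21-fold (1.88 to 2.61). edgeR gave a log2 change of -1.82 (SE 0.55, unadjusted p = 0.00762, adjusted p = 0.630), and -1.68 with cell line as a block (unadjusted p = 0.0466, adjusted p = 0.467). The blocked edgeR change lost the unadjusted threshold when WM983A (unadjusted p = 0.120), WM983B (0.0679), WM278 (0.127) or WM902B (0.133) was left out, and was -2.29 without WM1617 (unadjusted p = 0.00302). In exact permutation the two-sided p was 0.0556, where the smallest that 5 against 5 libraries allow is 0.00794. In resistant WM983A and WM902B, where PLAU was abundant, PLAUR was at 4.89 and 3.87 CPM per kilobase.

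The change of PLAUR differed between lines of primary and metastatic origin before adjustment, in a comparison of 3 lines with 2. Its log2 ratios were -2.24, -3.58 and -2.37 in WM983A, WM278 and WM902B, all from primary tumours, and -0.94 and 1.14 in WM983B and WM1617 from metastases. The interaction of origin with state in edgeR was 2.83 on the log2 scale (SE 0.80, unadjusted p = 0.0135, adjusted p = 1.000). It passed the unadjusted threshold with a difference of at least 2-fold in this gene alone among the 8 tested, and in 1.79% of all tested genes. It was 1.79 without WM1617 (edgeR, unadjusted p = 0.0636), the only line in which PLAUR was higher, and PLAUR was lower in the other metastatic line, WM983B. The other 7 had unadjusted p-values from 0.190 to 0.888.

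The 250 bases upstream of the RefSeq start of PLAUR (GRCh38.p14, chr19:43670170-43670419, minus strand) are printed here because they hold an AP-1 motif, the element bound by the FOS and JUN factors that act downstream of ERK signalling. The letters searched were TGANTCA on both strands, which read the same motif on either strand, and 6.57% of 35116 RefSeq promoter windows of this length hold a match. Capitals mark the match, which starts at position -186 from the start site.
PLAUR: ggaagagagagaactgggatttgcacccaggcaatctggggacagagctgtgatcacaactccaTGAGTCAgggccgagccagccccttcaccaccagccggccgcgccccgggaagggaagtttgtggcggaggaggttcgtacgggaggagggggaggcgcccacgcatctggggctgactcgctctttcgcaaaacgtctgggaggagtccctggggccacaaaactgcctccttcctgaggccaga
A match in the letters is a description of the sequence and says nothing of binding in these cells.

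SERPINE2 (ENSG00000135919, chromosome 2, 223975045 to 224039318, minus strand) encodes protease nexin-1, which inhibits thrombin, urokinase and plasmin. It was the most abundant of the 9 genes per kilobase in all 5 sensitive libraries, at 125 to 338 CPM per kilobase. Its levels were 2238, 1328, 1813, 3029 and 1116 CPM in sensitive WM983A, WM983B, WM278, WM1617 and WM902B and 241, 354, 1410, 3183 and 173 CPM in the resistant ones. SERPINE2 was thus 9.30-fold lower in WM983A (8.96 to 9.65), 6.44-fold lower in WM902B and 3.75-fold lower in WM983B, and lay within 1.29-fold of the sensitive level in WM278 and 1.05-fold in WM1617. The resistant group split around the sensitive one, with 3 libraries below every sensitive library and 2 within or above its range. With cell line as a block the edgeR log2 change was -1.63 (SE 0.57, unadjusted p = 0.0257, adjusted p = 0.462), and without it -0.83 (unadjusted p = 0.297, adjusted p = 0.853). The blocked edgeR change missed the unadjusted threshold without the WM983A line (-1.22, unadjusted p = 0.0610), without WM983B (-1.55, unadjusted p = 0.0810) and without WM902B (-1.32, unadjusted p = 0.0869). Without the WM1617 line the fit without a block gave -1.58 (unadjusted p = 0.0437). After the change, PLAU led the 9 genes per kilobase in resistant WM983A and WM902B and F3 led in resistant WM983B, while SERPINE2 still led in resistant WM278 and WM1617.

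SERPINB2 (ENSG00000197632, chromosome 18, 63871692 to 63903888, plus strand) encodes PAI-2, an inhibitor of urokinase that largely stays inside the cell. It differed more between lines than between states. Sensitive WM983A, WM983B, WM278, WM1617 and WM902B had 26.1, 15.4, 464, 0.0714 and 1.60 CPM, and the resistant libraries 0, 57.8, 198, 0.286 and 2.57 CPM. WM278 was highest in both states and WM1617 was near the detection limit in both. SERPINB2 went from 397 counts to 0 in WM983A, which is at least 113-fold lower with the resistant level set to 3 counts. It was 2.34-fold lower in WM278, 3.74-fold higher in WM983B (3.24 to 4.34) and 1.60-fold higher in WM902B (0.938 to 2.80). In WM1617 only 1 and 5 counts were seen, a ratio of 4.01 with an interval from 0.449 to 190. The edgeR log2 change was -0.97 (SE 2.00, unadjusted p = 0.638, adjusted p = 0.949) and had the opposite sign, 0.52, without the WM278 line (unadjusted p = 0.792). A same-strand gene annotated over it, ENSG00000289724, shares 20.0% of its exon bases and was not analysed here.

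The upstream window of SERPINB2 (chr18:63887455-63887704, plus strand) is shown for its pair of marked elements, an AP-1 match at position -102 and a TATAAA match at -30. The TATAAA letters were searched on the gene's own strand and occur in 6.80% of all windows.
SERPINB2: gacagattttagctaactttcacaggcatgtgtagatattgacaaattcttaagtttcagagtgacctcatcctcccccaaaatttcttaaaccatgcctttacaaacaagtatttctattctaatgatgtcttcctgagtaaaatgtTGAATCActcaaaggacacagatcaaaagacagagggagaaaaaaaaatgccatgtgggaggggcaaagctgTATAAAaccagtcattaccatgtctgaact
Among the windows of the 7 genes that have one in the RefSeq table, this was the only TATAAA match.

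F3, tissue factor (ENSG00000117525, chromosome 1, 94529173 to 94541759, minus strand), was low and even in the sensitive lines and high in 2 resistant lines. Sensitive WM983A, WM983B, WM278, WM1617 and WM902B had 4.28, 8.08, 8.59, 3.64 and 7.35 CPM, a mean of 6.39 ± 2.27 (SD, n = 5). The resistant libraries had 7.07, 134, 7.34, 4.58 and 165 CPM in the same order. F3 was 16.6-fold higher in resistant WM983B (13.8 to 20.0) and 22.4-fold higher in resistant WM902B (18.5 to 27.4), and both lay far outside the sensitive range. The other 3 resistant libraries stayed inside it, with ratios of 1.65 in WM983A (1.19 to 2.31), 1.26 in WM1617 (0.874 to 1.82) and 0.854 in WM278 (0.660 to 1.10). edgeR gave a log2 change of 3.31 (SE 1.04, unadjusted p = 0.00910, adjusted p = 0.630), which with cell line as a block became 1.80 (unadjusted p = 0.0864, adjusted p = 0.494). DESeq2 without a block put F3 past the adjusted threshold (adjusted p = 0.0448), as it did 0.619% of all genes at a fold of at least 2, and with the block did not (adjusted p = 0.152). Exact permutation of the log2 level gave a two-sided p of 0.222.

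The F3 window (chr1:94541760-94542009, minus strand) is shown because it holds AP-1 matches at positions -223 and -210, the only window with more than 1 among the 7 genes that have a window.
F3: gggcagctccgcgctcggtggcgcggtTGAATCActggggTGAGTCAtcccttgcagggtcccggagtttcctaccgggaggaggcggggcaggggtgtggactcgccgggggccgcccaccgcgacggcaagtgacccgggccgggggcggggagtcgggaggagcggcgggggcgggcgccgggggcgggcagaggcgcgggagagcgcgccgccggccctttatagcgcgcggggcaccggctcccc
The RefSeq table of promoters had a window for 7 of the 9 genes, and AP-1 letters were found in 4 of these, PLAUR, SERPINB2, F3 and TFPI2, and not in the windows of PLAU, SERPINE2 and TFPI.

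TFPI (ENSG00000003436, chromosome 2, 187464230 to 187565760, minus strand) encodes tissue factor pathway inhibitor, which blocks factor Xa and the complex of tissue factor with factor VIIa. Sensitive WM983A, WM983B, WM278, WM1617 and WM902B had 16.4, 37.2, 102, 0.50 and 19.4 CPM and the resistant libraries 26.0, 149, 73.7, 0.286 and 106 CPM. TFPI was at least 2-fold higher in WM983B, by 4.01-fold (3.66 to 4.41), and in WM902B, by 5.46-fold (4.82 to 6.21), which were the lines with the high F3. WM1617 stayed near the detection limit, with 7 and 5 counts, and the groups overlapped widely. The edgeR log2 change was 1.02 (SE 1.24, unadjusted p = 0.429, adjusted p = 0.902), a mean difference smaller than its error. With cell line as a block the edgeR log2 change was 0.93 (SE 0.53, unadjusted p = 0.126, adjusted p = 0.535). Per kilobase, F3 against TFPI went from 0.881 to 3.64 in WM983B and from 1.54 to 6.33 in WM902B, while it moved from 1.06 to 1.10 in WM983A and from 0.342 to 0.404 in WM278. In WM1617 it was 29.6 in the sensitive and 64.9 in the resistant library, on the 7 and 5 counts of TFPI. Over the 5 lines the log2 ratios of F3 and TFPI had r = 0.960, a description over 5 points that share the library scaling.

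TFPI2 (ENSG00000105825, chromosome 7, 93885396 to 93890753, minus strand), a related Kunitz-type inhibitor that acts on plasmin and other proteases in the matrix, followed a different order. It had 28.2, 8.02, 382, 0.0714 and 9.96 CPM in sensitive WM983A, WM983B, WM278, WM1617 and WM902B and 22.4, 22.2, 181, 0.516 and 55.7 CPM in the resistant libraries. WM278 was highest in both states, as for SERPINB2, and WM1617 was lowest in both. The gene was 5.60-fold higher in WM902B (4.70 to 6.71) and 2.77-fold higher in WM983B, 2.11-fold lower in WM278 and within 1.26-fold in WM983A. In WM1617 it went from 1 to 9 counts, a ratio of 7.22 with an interval from 1.00 to 316. The edgeR log2 change was -0.60 (SE 1.58, unadjusted p = 0.709, adjusted p = 0.962) and had the other sign, 0.80, with cell line as a block (unadjusted p = 0.241, adjusted p = 0.622).

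The window of TFPI2 (chr7:93890754-93891003, minus strand) is given to complete the set with an AP-1 match, here at position -87.
TFPI2: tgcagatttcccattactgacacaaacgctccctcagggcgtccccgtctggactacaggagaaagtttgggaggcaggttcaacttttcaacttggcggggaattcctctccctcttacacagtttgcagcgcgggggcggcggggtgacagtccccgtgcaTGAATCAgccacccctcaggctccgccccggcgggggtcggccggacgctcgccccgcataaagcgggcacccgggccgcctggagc
It lies nearer to the start site than the matches of PLAUR, SERPINB2 and F3.

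THBD (ENSG00000178726, chromosome 20, 23045633 to 23049672, minus strand) encodes thrombomodulin, the membrane protein that turns thrombin towards the activation of protein C. It was scarce in the sensitive lines, with 12, 21, 6, 0 and 3 counts in WM983A, WM983B, WM278, WM1617 and WM902B. The resistant libraries had 230, 265, 83, 0 and 0 counts, or 17.7, 16.6, 5.30, 0 and 0 CPM. THBD was 22.4-fold higher in WM983A (12.6 to 43.9), 12-fold higher in WM983B (7.66 to 19.6) and 14.1-fold higher in WM278 (6.20 to 39.4), and was at or under 3 counts in both states of WM1617 and WM902B. The edgeR log2 change was 3.82 (SE 1.61, unadjusted p = 0.0380, adjusted p = 0.685) and 3.20 with cell line as a block (unadjusted p = 0.0268, adjusted p = 0.462). Exact permutation of the log2 level gave p = 0.405, two-sided. Without the resistant WM983A library the edgeR change was 3.28 (unadjusted p = 0.0798), and without the WM278 line 3.83 (unadjusted p = 0.0846), or 2.93 with the block (unadjusted p = 0.0987). Without the WM983A or the WM983B line THBD failed the filter.

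**Figure D2:**
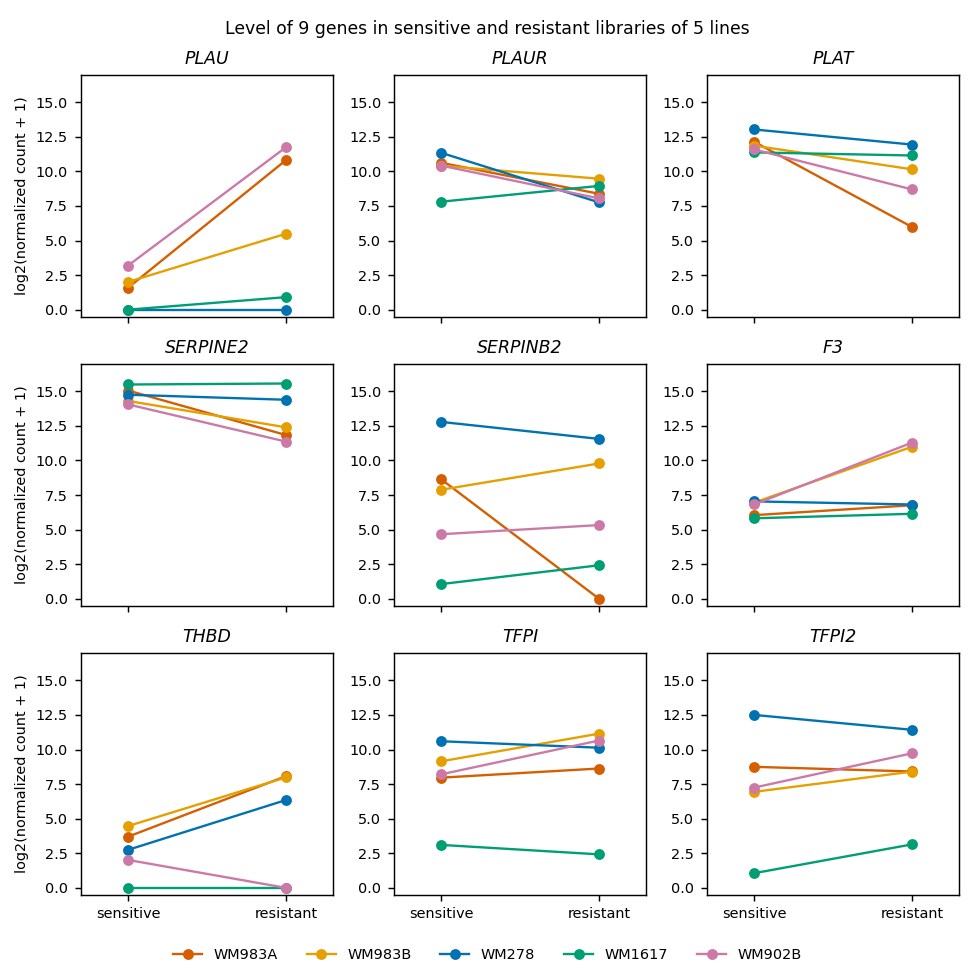
Levels of the 9 genes as log2 of the normalized count plus 1 (y axis) in the sensitive and resistant library of each line (x axis), with 1 coloured line and pair of points per cell line and no error bar, since each point is 1 library. PLAT is lower in the resistant library of all 5 lines, PLAU is high in resistant WM983A and WM902B, and F3 in resistant WM983B and WM902B.

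In the test across all genes, no member passed an adjusted p of 0.05 in edgeR, with or without the block, and of 17287 genes tested 0% did. A gene was called where it changed at least 2-fold with an unadjusted p of 0.05 or less. By this criterion F3 and THBD were higher, where 3.53% of all genes were, and PLAUR was lower, where 0.885% were. With cell line as a block THBD was higher (3.48% of all genes) and PLAUR, PLAT and SERPINE2 were lower (2.05%). DESeq2 with the block put PLAT (adjusted p = 0.0409) and SERPINE2 (adjusted p = 0.0428) past the adjusted threshold, where 2.93% of all genes were at a fold of at least 2. Without the block these p-values measure the spread between 5 libraries a group, and with it the spread of the change between 5 lines. Of the 5 lines, 4 come from 2 patients.

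Line by line, resistant WM983B and WM902B were the libraries with the most members changed. In WM983B, 6 of the 9 genes were at least 2-fold higher and 2 lower, against 16.2% and 11.2% of the genes tested. In WM902B 4 were higher and 3 lower, against 15.4% and 12%, and in WM983A 2 were higher and 4 lower, against 16.9% and 19.4%. WM278 had 1 higher and 4 lower, against 12.1% and 7.0%. WM1617 had 3 higher and 0 lower, against 2.83% and 3.80%, and 2 of its 3, SERPINB2 and TFPI2, rest on 1 count in the sensitive library. WM1617 was thus the line in which the abundant members, SERPINE2 and PLAT, moved least.

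**Figure D3:**
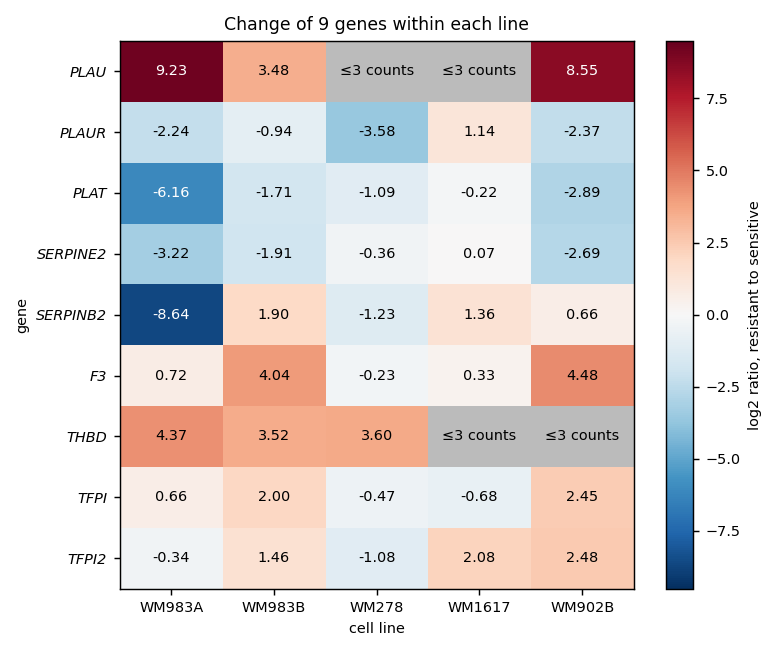
Resistant library over sensitive library, as a log2 ratio, for each of the 9 genes (rows) in each of the 5 lines (columns), on TMM-normalized counts with 1 added, coloured from blue (lower) to red (higher), with grey cells where both libraries had 3 counts or fewer. The PLAT row is below 0 in every line, from -6.16 to -0.22, and the highest values are those of PLAU, 9.23 in WM983A and 8.55 in WM902B.

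Several of the 9 genes shared their pattern over the 10 libraries. PLAU ran against SERPINE2 (r = -0.897, Spearman's rho = -0.841) and against PLAT (r = -0.895, rho = -0.718), while SERPINE2 and PLAT ran together (r = 0.796, rho = 0.539). TFPI and TFPI2 had r = 0.848 (rho = 0.624), and F3 and SERPINE2 r = -0.771 (rho = -0.697). These are correlations of log2 levels over 10 libraries that share lines, patients and library scaling, and are given without a test.

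Over all tested genes, the pattern most like that of SERPINE2 was that of FABP7 (r = 0.970), a brain-type fatty acid binding protein also made by melanoma cells, followed by MIA (r = 0.961), a secreted melanoma protein, and JPH1 (r = 0.961), and least like it was HIST2H2AA3 (r = -0.981). For PLAT the 3 most alike were APBA1 (r = 0.983), ZNF462 (r = 0.982) and the small MAF factor MAFF (r = 0.978), and UQCC2 was least alike (r = -0.964). FAM110A (r = 0.945), ADAMTS3 (r = 0.940) and CDKN2D (r = 0.929) were most like PLAUR, and NSUN5P2 least (r = -0.918). SERPINB2 was most like SERPINB10 (r = 0.988), its neighbour in the serpin cluster on chromosome 18, then TIAM2 (r = 0.980) and ZNF844 (r = 0.971), and least like VPS35 (r = -0.974). For F3 they were LYPD6B (r = 0.951), ADAMTSL4 (r = 0.95) and the actin cross-linker FLNC (r = 0.95), with SLC25A4 at the other end (r = -0.957). TFPI went with NECAP2 (r = 0.976), SP140L (r = 0.972) and the growth factor MDK (r = 0.970) and against PABPC1P3 (r = -0.981). TFPI2 went with the Hedgehog factor GLI2 (r = 0.973), PLEKHM3 (r = 0.973) and SS18 (r = 0.957) and against AK4P1 (r = -0.978). For THBD, AC034220.3 (r = 0.982), PPP1R26 (r = 0.974) and RP3-331H24.7 (r = 0.963) were most alike and DNAJC21 least (r = -0.962). The extremes among so many genes over 10 libraries are high by selection and are given as a description.

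Of 13 other genes of fibrinolysis, 8 passed the filter. MRC2, the urokinase receptor associated protein that takes up collagen, was the only gene called by the criterion of 2-fold and unadjusted p given above, with or without the block. It was called higher, as were 3.53% of all genes without the block and 3.48% with it. MRC2 had 15.2, 61.8, 111, 93.8 and 96.9 CPM in sensitive WM983A, WM983B, WM278, WM1617 and WM902B and 95.6, 614, 75.9, 108 and 383 CPM in the resistant ones, and edgeR gave a log2 change of 1.75 (SE 0.69, unadjusted p = 0.0286, adjusted p = 0.675). It was higher in the 3 lines in which PLAU was higher. The zymogen PLG itself was at 0.154 CPM or less in all 10 libraries, while the plasminogen-binding proteins ANXA2 and ENO1 were abundant. The log2 ratio of VTN, vitronectin, was above 1 in 4 lines, but on few counts and never above 2.20 CPM. The list median was 0.32 on the log2 scale against 0.03 over all genes, and 0.18 against 0.00 with the block.

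Most coagulation factors were scarce in these cells. Of 18 genes of coagulation 8 passed the filter and 0 were called in either direction, with or without the block. Of all genes tested, 4.42% were called without the block and 5.53% with it. F5, F9 and F13A1 had no count in any library. The thrombin receptor F2R had 93.0, 83.1, 300.5, 21.8 and 37.8 CPM in sensitive WM983A, WM983B, WM278, WM1617 and WM902B and 50.9, 637, 284, 10.1 and 254 CPM in the resistant ones. It was higher in WM983B and WM902B and lower in the other 3 lines (log2 change over all lines 1.20, SE 0.97, unadjusted p = 0.241, edgeR adjusted p = 0.828). F7, whose product is the partner of tissue factor, was at 0.0714 CPM or less throughout. The median of this list was 0.71, or 0.19 with the block.

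Of 16 other serpins 10 passed the filter, and SERPIND1, heparin cofactor II, an inhibitor of thrombin, was the only gene called, with or without the block. It was called lower, as were 0.885% of all genes without the block and 2.05% with it. It had 32.3, 25.8, 12.6, 1.79 and 2.27 CPM in sensitive WM983A, WM983B, WM278, WM1617 and WM902B and 0.154, 0.690, 4.02, 1.95 and 0.406 CPM in the resistant ones. It was at least 2-fold lower in 4 lines, and its edgeR log2 change was -3.36 (SE 1.04, unadjusted p = 0.00852, adjusted p = 0.630). SERPINB6, an intracellular serpin, was higher in all 5 lines but by less than 2-fold in the fit (log2 change 0.69, edgeR unadjusted p = 0.0177, adjusted p = 0.632), and SERPINB1 had 0.77 with the block (unadjusted p = 0.0266). The list median was -0.04, or -0.18 with the block.

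The lines in which PLAU was higher and SERPINE2 lower were those in which SOX10, the lineage factor of melanocytes, was lower. SOX10 had 342, 307, 319, 344 and 319 CPM in sensitive WM983A, WM983B, WM278, WM1617 and WM902B and 6.45, 12.6, 274, 338 and 0.677 CPM in the resistant libraries. WM983A, WM983B and WM902B thus had almost no SOX10 left and are the 3 lines with PLAU up and SERPINE2 down, whereas WM278 and WM1617 kept SOX10, had PLAU at or under 1 count and held SERPINE2 within 1.29-fold. MITF, the melanocyte master regulator, was at 385, 264, 10.7, 627 and 402 CPM in the sensitive and 34.3, 36.9, 14.5, 528 and 220 CPM in the resistant libraries. The markers MITF, PMEL, TYR and DCT were lower in WM983A, WM983B and WM902B. MLANA instead went from 14 to 63 counts in WM983B, and TYRP1 from 11 to 22 counts in WM902B. All 7 melanocyte markers passed the filter, and their median log2 change was -1.37, or -3.12 with the block. TYRP1 was called lower without the block, where 0.885% of all genes were, and TYR with it, where 2.05% were. Their summed level ranged from 336 to 4460 CPM in the sensitive and from 86.0 to 4325 CPM in the resistant group, and none was at 0 in any library. F3 did not follow the same lines, being high in WM983B and WM902B and not in WM983A. The part of these markers in the results was not tested.

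ERK output markers, the genes switched on by the pathway that both drugs block, were mostly lower in resistant WM983A, WM983B, WM278 and WM902B, which were kept in drug. In WM1617, also kept in drug, their summed level was 3174 CPM in the sensitive and 3584 CPM in the resistant library. CCND1 alone went from 854 to 1484 CPM there. DUSP6, DUSP4, ETV4 and ETV5 were lower in WM1617 and SPRY2, SPRY4, SPRED1 and IER3 higher, each by less than 2-fold. Of 10 genes, DUSP4 and SPRED1 were called lower without the block, where 0.885% of all genes were. With it DUSP6, DUSP4, SPRY2, ETV4, ETV5 and SPRED1 were, against 2.05% of all genes, and 0 were called higher. DUSP6, the ERK phosphatase, went from 185, 162, 244, 213 and 124 CPM in sensitive WM983A, WM983B, WM278, WM1617 and WM902B to 14.7, 48.4, 115, 172 and 7.25 CPM, and ETV4 from 101, 68.5, 140, 213 and 179 to 26.0, 16.3, 11.2, 167 and 4.88 CPM. Both were at least 2-fold lower in the 4 lines in which PLAT was. The same held for DUSP4, which makes 3 of the 10 markers, and not for the rest. CCND1 was 3.31-fold higher in WM983A, the line in which PLAT fell most. The median of the list was -1.16, or -1.47 with the block, and its summed level was 1539 to 4978 CPM in the sensitive and 1061 to 3584 CPM in the resistant group. Whether the activators followed these markers was not tested.

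**Figure D4:**
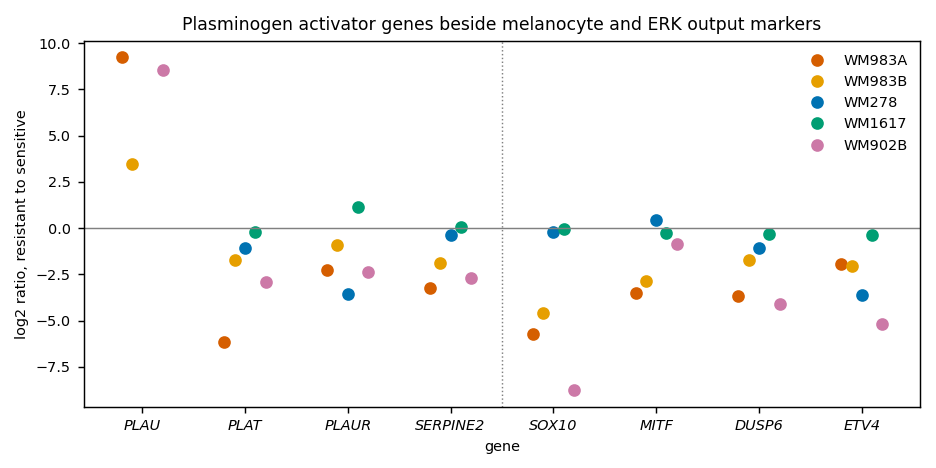
Resistant library over sensitive library, as a log2 ratio (y axis), for 4 of the 9 genes, left of the dotted line, and for 4 markers, right of it (x axis), with 1 point per cell line and no error bar; PLAU is not drawn for WM278 and WM1617, where both libraries had 3 counts or fewer. SOX10 is at -5.71, -4.60 and -8.74 in WM983A, WM983B and WM902B, the lines with PLAU higher, and near 0 in WM278 and WM1617.

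Markers of other cell types were measured because endothelial cells, myeloid cells and keratinocytes also make some of these proteins. Of 6 endothelial markers, of cells that also make THBD, TFPI and PLAT, 0 passed the filter, CDH5 was at 0.197 CPM or less, and their summed level was 0.928 to 53.8 CPM in the sensitive and 0.307 to 5.81 CPM in the resistant group. The high end was KDR in sensitive WM278, at 53.3 CPM. Of 5 haematopoietic markers 2 passed, CD68 and ITGAM, and PTPRC was at 0.357 CPM or less. With or without the block 0 were called, against 5.53% and 4.42% of all genes tested. CD68, a lysosomal protein abundant in macrophages, had 38.7, 13.4, 7.53, 78.1 and 7.55 CPM in sensitive WM983A, WM983B, WM278, WM1617 and WM902B and 16.8, 39.4, 4.59, 66.3 and 34.3 CPM in the resistant ones. CD68 was thus 2.94-fold higher in WM983B and 4.55-fold higher in WM902B, the lines in which F3 and TFPI were higher. In the same lines CD14 went from 5 to 81 and from 3 to 14 counts, and ITGAM from 15 to 13 and from 0 to 27 counts. CSF1R went from 3 to 17 and from 11 to 6 counts, and PTPRC from 1 to 0 and from 4 to 0, so the markers did not move together. The part of these markers in the results for F3 and TFPI was not tested. Of 4 keratinocyte markers only KRT10 passed, at 16.9 to 86.0 CPM, and KRT1 had no count. The summed levels were 4.85 to 78.7 CPM for the haematopoietic and 17.8 to 86.9 CPM for the keratinocyte markers over all libraries. In bulk RNA, fewer cells that express a gene and less RNA per cell cannot be told apart.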

How the data were processed

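Poly(A)-selected libraries of the 10 cell lines were read from a single end over 75 cycles. Alignment to GRCh38 used HISAT2 and gene quantification StrandNGS, as run by the authors. The versions, the annotation, the use of strand and the handling of shared reads are not given in the sources used here. The raw values deposited are expected counts per Ensembl gene, with fractions. The authors also deposited normalized values on a log2 scale, relative to the sensitive library of the same line. Dates stood in place of 455 raw values of sensitive WM983B. They were recovered from those log2 values, and none was of the 9 genes. The log2 values entered no other result.

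Expected counts were rounded, filtered with filterByExpr (17287 genes kept), scaled by TMM and tested with the quasi-likelihood test of edgeR 4.0.16 in R 4.3.3, 5 resistant against 5 sensitive libraries, two-sided, with Benjamini-Hochberg adjustment. Limma 3.58.1 and DESeq2 1.42.0 were alternatives. No block was used by default, because the paper states no pairing for its test of differential expression. The pairing by cell line comes from the derivation of each resistant line, and deviations from the group means correlated within a line by -0.06, 0.54, 0.68, 0.67 and 0.38 in WM983A, WM983B, WM278, WM1617 and WM902B, so the blocked fit is given beside each result it changes. Ratios within a line used normalized counts with 1 added. Their intervals are exact 95% conditional binomial intervals. Matplotlib 3.10.9, scipy 1.17.1, pandas 2.3.3 and numpy 2.4.6 were run under Python 3.11.15. The fits were tested on simulated counts. Upstream sequences are RefSeq, GRCh38.p14, and positions and exon lengths GENCODE release 44.

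The 9 genes, the lists of other genes and the tests were chosen with earlier results of these data known. Named besides the 9 are genes of the lists that were called in either edgeR fit or changed at least 2-fold the same way in 4 or more lines, the 3 most and the 1 least correlated genes, and markers given beside a result. PLG, ANXA2, ENO1, F2R, F5, F7, F9, F13A1, SERPINB1 and SERPINB6 fall outside these rules and were named after their values were seen.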

Additional observations from a re-analysis of the deposited data

Results flagged for a closer look

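Of 18 groups of 5 log2 levels, 9 genes in 2 states, 2 held a library set apart from the others by more than Dixon's 95% critical share of the range, and chance alone sets apart about 1 group in 20. PLAUR in the sensitive libraries was lowest in WM1617, at 14.6 CPM, with a gap of 0.735 of the range. TFPI in the resistant libraries was lowest in WM1617, at 0.286 CPM, with a gap of 0.711 of the range. For PLAUR the change with resistance differed between lines of metastatic and primary origin by 2.83 on the log2 scale (edgeR interaction with cell line as a block, unadjusted p = 0.0135, adjusted p = 1.000), with 3 lines against 2.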

How the results depend on the processing

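Of the 8 genes tested, 3 were called in edgeR without a block at a fold of 2 and an unadjusted p of 0.05. The number was 2 to 4 when each line was left out in turn and 5 in DESeq2 with the replicate block, and 4 with the replicate block in edgeR, where leaving out a line gave 0 (without WM983B) to 5 (without WM278, F3, TFPI and TFPI2 among them). Over all genes tested the same criterion called 4.42%, against 8.62% in DESeq2 with the replicate block, 5.53% with it in edgeR and 2.42% to 8.57% when a line was left out, the highest without WM1617. The number past an adjusted p of 0.05 was 0, but 1 in DESeq2 (F3) and 2 in DESeq2 with the replicate block (PLAT and SERPINE2), and DESeq2 gave no p for TFPI2. Apart from the results named here and the calls given with the block in the report, the block changed no call among the 8 genes tested. Limma-voom called PLAUR and PLAT, with unadjusted p = 0.139 for F3 and 0.515 for THBD. Without the filter on low counts PLAU was tested and had a log2 change of 8.54 (edgeR, unadjusted p = 0.00227, adjusted p = 0.623), a value that depends on the prior count. PLAUR passed the unadjusted threshold in 17 of 21 fits, with log2 changes from -2.29 to -1.17, F3 in 15 of 21 and THBD in 12 of the 16 that tested it. TFPI2 changed sign to 0.80 with the replicate block, 0.90 in DESeq2 with it, 0.86 in limma-voom and, when a line was left out, ranged from -0.88 to 1.13 (without WM278), or 0.30 to 1.42 with the replicate block (1.15, 0.56 and 0.61 without WM983A, WM983B and WM1617). SERPINB2 ranged from -1.28 to 0.52 (without WM278), or -1.33 to 0.56 with the block (0.087 without WM278). The interaction called 1 gene, PLAUR, and 0 to 2 when a line was left out, 0 without WM1617 and with SERPINB2, PLAT or TFPI2 besides PLAUR without WM983A, WM278 or WM902B. For THBD it was -0.49 with no replicate block, against 0.45 with it, and -0.65 to 1.15 when a line was left out. Over the same fits it ranged from -1.15 to 2.55 for F3 and from -1.63 to 1.14 for TFPI. By exact permutation 0 or 1 genes passed when a line was left out, PLAUR in place of PLAT without WM1617 (p = 0.0286, the smallest that 4 against 4 allow), and the difference for SERPINB2 ranged from -1.96 to 0.67 (without WM983A), against -1.19 with all lines. The 16 increases and 13 decreases of at least 2-fold within lines became 15 to 16 and 12 to 13 with another added count or scaling. The cause of these differences was not tested. Leaving out the resistant WM983A library alone, and leaving out lines in the blocked and interaction fits, were chosen after seeing the data. One library per line and state limits what can be seen, and genes at a few counts, such as PLAU and THBD in sensitive lines, carry wide intervals.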
